A study of Mus musculus with 6 samples.

Results

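The 41 genes described here run DNA replication and the cell cycle, and their chromatin accessibility was compared between small intestinal organoids of aged and young mice. A peak was taken as belonging to a gene when the deposited annotation named that gene as the one with the nearest transcription start site (TSS), no more than 50 kb away. This gave 222 of the 156733 consensus peaks: 30 promoter peaks, within 1 kb of the annotated TSS, at 25 of the genes, and 192 distal peaks, over 1 kb away, at 34 of them. In all, 38 of the 41 genes had at least 1 such peak, and Pcna, Mcm3 and Bub1 had none. All 30 promoter peaks and 158 of the 192 distal peaks passed the filter on low counts and were tested.

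Origins of replication are licensed in G1, when ORC, Cdc6 and Cdt1 load the MCM helicase onto DNA. D-type cyclins with Cdk4 or Cdk6 phosphorylate the retinoblastoma protein Rb1, which frees E2F factors to switch on genes of S phase. Cyclin E with Cdk2, cyclin A and then cyclin B with Cdk1 carry the cell through S phase and into mitosis. In the intestine this machinery is most active in the stem and transit-amplifying cells of the crypts, and organoid culture keeps both.

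ATAC-seq marks open chromatin by where the Tn5 transposase inserts sequencing adapters. The young group comprised 3 libraries of organoids from C57BL/6JRj mice aged 2 to 3 months, and the aged group 3 libraries from mice of the same strain aged 20 to 22 months. Neither group was treated or carried a described genetic change. Both were kept in culture for 3 to 5 weeks with weekly passages, and each age had 1 library at passage 4 (replicate 1), 1 at passage 3 (replicate 2) and 1 at passage 2 (replicate 3). Whether the 3 cultures of an age trace back to different mice is not stated, so the p-values speak for the spread among these libraries, which may be technical. Libraries held 7278161 to 26093521 counts in peaks. Young replicate 1 was the shallowest and lay apart from the other 5 on the first principal component (37.6% of the variance). Young replicate 3 lay apart on the second (22.3%) and was the lowest library at 28.6% of all promoter peaks. Promoter peaks were found at 9 of 10 intestinal epithelial marker genes, with summed levels of 399 to 437 CPM (counts scaled to library size) in young and 423 to 450.4 in aged libraries. No promoter peak was found at any of 5 immune markers, which include Ptprc and Cd3e. Of 5 stromal markers 3 had one, with sums of 22.4 to 27.8 and 25.2 to 30.3 CPM, and of 3 endothelial markers 1 had one, with sums of 2.69 to 3.71 CPM in young and 1.86 to 2.22 in aged libraries. The 1 kb rule also found no promoter peak at the epithelial marker Vil1 or at Pcna, so a missing one does not show that a cell type was absent. The part of immune, stromal or endothelial cells in the values below was not tested. In bulk libraries, fewer cells of a type and less accessibility per cell cannot be told apart.

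Many cell cycle genes carry short promoter elements through which E2F and related factors act, and 7 upstream stretches are shown for the genes the results turn on. Each is the 190 bases before the RefSeq transcript start (GRCm38.p6), read 5′ to 3′ on the gene's own strand. Capitals mark matches on either strand to 3 kinds of element: E2F site forms (TTTCCCGC, TTTGGCGC, TTTCGCGC or TTCCCGCC), the cell cycle homology region TTTGAA, and the CCAAT box. The helicase subunits Mcm5 (chr8:75109319-75109508, plus strand) and Mcm6 (chr1:128359706-128359895, minus strand) stand for the licensing genes.
Mcm5: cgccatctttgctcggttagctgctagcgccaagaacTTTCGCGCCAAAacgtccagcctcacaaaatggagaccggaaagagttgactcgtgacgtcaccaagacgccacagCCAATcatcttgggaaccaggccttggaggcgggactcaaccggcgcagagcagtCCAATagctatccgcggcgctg
Mcm6: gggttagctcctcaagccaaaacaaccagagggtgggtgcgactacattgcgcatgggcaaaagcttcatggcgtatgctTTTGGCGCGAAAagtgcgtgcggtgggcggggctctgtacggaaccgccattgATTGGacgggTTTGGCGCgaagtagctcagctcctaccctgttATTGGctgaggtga

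In both genes a match to TTTCGCGC on one strand overlapped a match to TTTGGCGC on the other, and Mcm6 had a further TTTGGCGC nearer the start. The genes of G2 and mitosis are shown by the mitotic kinase Cdk1 (chr10:69352913-69353102, minus strand), the proliferation marker Mki67 (chr7:135716380-135716569, minus strand) and cyclin B2, Ccnb2 (chr9:70421555-70421744, minus strand).
Cdk1: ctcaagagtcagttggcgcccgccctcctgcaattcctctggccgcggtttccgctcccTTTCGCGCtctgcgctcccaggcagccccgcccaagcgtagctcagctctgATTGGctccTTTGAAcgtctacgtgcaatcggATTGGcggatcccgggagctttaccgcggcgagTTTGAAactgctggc
Mki67: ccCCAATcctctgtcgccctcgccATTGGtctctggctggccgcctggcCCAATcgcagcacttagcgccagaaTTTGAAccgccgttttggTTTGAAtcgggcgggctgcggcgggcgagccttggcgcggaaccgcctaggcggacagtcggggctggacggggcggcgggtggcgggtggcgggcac
Ccnb2: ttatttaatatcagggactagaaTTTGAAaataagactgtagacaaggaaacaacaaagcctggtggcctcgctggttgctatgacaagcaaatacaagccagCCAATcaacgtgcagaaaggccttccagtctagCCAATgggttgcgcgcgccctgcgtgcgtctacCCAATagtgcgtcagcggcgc

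Cdk1 held both TTTGAA and an E2F form, whereas the stretches of Mki67 and Ccnb2 held TTTGAA and CCAAT alone. The last pair are Tk1 (chr11:117826015-117826204, minus strand), the thymidine kinase of the nucleotide salvage pathway, whose promoter levels did not overlap between the ages, and Cdk6 (chr5:3343703-3343892, plus strand), the gene with the single called peak.
Tk1: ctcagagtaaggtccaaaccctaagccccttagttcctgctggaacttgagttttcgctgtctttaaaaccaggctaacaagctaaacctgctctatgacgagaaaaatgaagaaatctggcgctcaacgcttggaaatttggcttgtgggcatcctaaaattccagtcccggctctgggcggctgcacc
Cdk6: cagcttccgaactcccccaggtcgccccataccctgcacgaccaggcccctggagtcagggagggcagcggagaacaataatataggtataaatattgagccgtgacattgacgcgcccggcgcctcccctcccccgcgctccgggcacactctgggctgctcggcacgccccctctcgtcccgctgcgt

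None of the 3 kinds of element was found in the shown stretches of Tk1 and Cdk6. The Tk1 stretch lies almost wholly outside the Tk1 promoter peak (chr11:117825399-117826017), so it does not show the sequence under that peak. RefSeq windows of 300 bases, from 250 before to 50 after a start, were at hand for 33 of the 41 genes (37 windows). An E2F form was found in 14 of the 37 (37.8%), against 3.49% of 32851 windows of all genes. Licensing genes held 6 of the 14, in 6 of their 8 windows (Cdc6, Cdt1, Mcm3, Mcm5, Mcm6 and Mcm7). TTTGAA was found in 11 of 37 (29.7%) against 17.9% of all windows, and in 6 of 9 windows of G2 and mitosis genes (Aurka, Ccnb2, Cdc20, Cdk1, Mki67 and Plk1). CCAAT was found in 70.3% against 37.4%, and GGCGG, the core of the cell cycle-dependent element, in 94.6% against 48.8%. The forms TTTCCCGC and TTCCCGCC can overlap, as can GGCGG with TTCCCGCC on the opposite strand. The gene windows were also richer in G and C, with a median of 59.3% against 52.7%, and the part of base composition in these shares was not tested. A match is a match of letters and says nothing of binding.

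Promoter accessibility of the replication and cell cycle genes did not pass the test between aged and young organoids at any of the 30 promoter peaks. edgeR's quasi-likelihood test called 0 of 30 at an adjusted p under 0.05, where it called 1.44% of all promoter peaks, and DESeq2 also called 0. At an unadjusted p under 0.05 there were 2 of 30, with 10.5% over all promoters. The median log2 fold change, aged over young, was 0.035, beside 0.027 over all promoters, with 17 peaks above 0 and 13 below. That median was -0.0089 without young replicate 2 and 0.0071 without young replicate 3, so its sign rested on single libraries. Single estimates ran from -0.34 to 0.49, and every 95% interval lay between -0.93 and 0.93, so promoter changes of about 1.9-fold or more were outside all of the intervals. Aged and young levels did not overlap at 4 promoters with aged higher, Ccne2, Ccnb1, Gmnn and the more distant peak of Ccnd2, against 10.4% of all promoters. They did not overlap at 2 with aged lower, Tk1 and Rrm1, against 5.74%. Both counts lie near those shares. Summed over the 30 peaks, the level was 924, 873 and 846 CPM in young replicates 1 to 3 and 891, 903 and 895 in aged replicates 1 to 3, so the aged sums lay inside the young range.

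**Figure D1:**
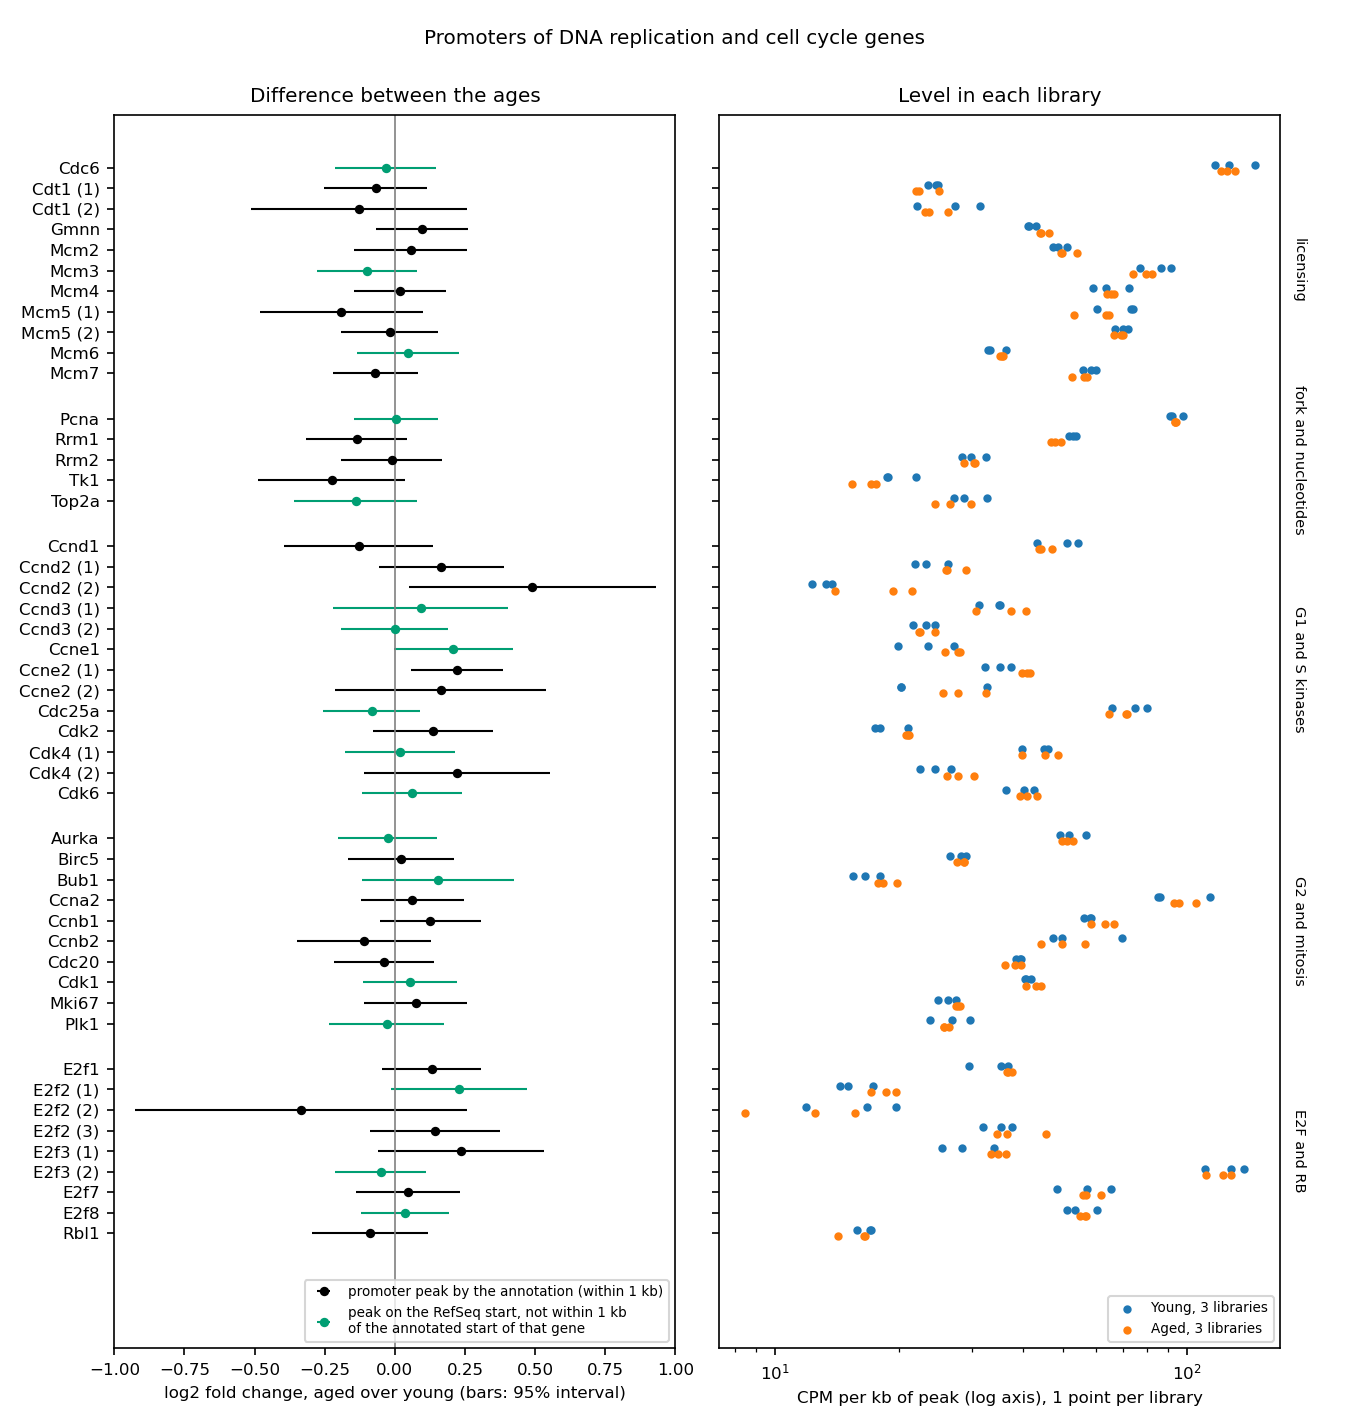
Left, log2 fold change of aged over young with its 95% interval (bars) at each promoter peak of the 41 genes, ordered by role, with peaks within 1 kb of the annotated TSS in black and further peaks on RefSeq starts in green. Rb1 and Aurkb had neither kind of peak and are not shown. Right, the level in each of the 3 young and 3 aged libraries in CPM per kb of peak (log axis), where the spread between genes, from 14.1 to 128 CPM per kb, is far wider than that between the ages.

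These promoters were among the more open ones. Per kb of peak the 30 had a median of 36.2 CPM, against 19.6 over promoter peaks of all protein-coding genes, and 26 of the 30 lay above the latter. The highest promoter level was at Ccna2, cyclin A2, which acts in S phase and G2: 114, 84.9 and 86.3 CPM per kb in young replicates 1 to 3 and 95.9, 105 and 93.1 in aged ones. Young replicate 1 was the highest of the 6 libraries there and the other 2 young libraries the lowest. The log2 fold change of Ccna2 was 0.062 with young replicate 1 and 0.20 without it (adjusted p = 0.414). The lowest level was at the smaller of the E2f2 promoter peaks, with 19.6, 16.7 and 11.9 CPM per kb in young and 15.6, 8.45 and 12.5 in aged libraries. E2f2 encodes an activating E2F factor, and its aged and young levels overlapped, with a log2 fold change of -0.34 (SE 0.291, 95% interval -0.93 to 0.26). Within a group the libraries agreed closely at these promoters, with a median relative SD of 8.40% in young and 5.19% in aged libraries. Over promoter peaks of all protein-coding genes the medians were 10.7% and 6.94%.

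Among the licensing genes, 8 promoter peaks at 6 genes had a median log2 fold change of -0.044, with 3 above 0 and 5 below. Mcm5, a subunit of the replicative helicase, had the smallest p of this group. Its smaller peak (chr8:75108654-75108791) had 10.1, 10.2 and 8.33 CPM in young replicates 1 to 3 and 8.77, 8.92 and 7.34 in aged ones. Each aged library was lower than the young library of the same number, but the groups overlapped, and the log2 fold change was -0.19 (SE 0.143, 95% interval -0.48 to 0.10) with an adjusted p of 0.740. The main Mcm5 peak, on the start shown above, stood at 38.7 ± 1.48 CPM (SD, n = 3) in young and 38.1 ± 1.01 CPM (SD, n = 3) in aged organoids. Gmnn encodes geminin, the inhibitor that keeps Cdt1 from licensing an origin again within a cycle. Its promoter peak had 44.2, 46.3 and 44.6 CPM in young and 47.5, 47.4 and 49.7 in aged libraries, with all 3 aged libraries above all 3 young ones, by a log2 difference of 0.096 (SE 0.0808, 95% interval -0.069 to 0.26) and an adjusted p of 0.783. The helicase genes Mcm2, Mcm4 and Mcm7 and the loading factor gene Cdt1 had promoter log2 fold changes between -0.13 and 0.057.

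Genes of the replication fork and of nucleotide supply had 3 promoter peaks, all with estimates below 0. At Tk1 (chr11:117825399-117826017) the levels were 13.6, 11.6 and 11.6 CPM in young and 10.6, 9.52 and 10.9 in aged replicates 1 to 3. All aged libraries were below all young ones, and the log2 fold change was -0.23 (SE 0.129, 95% interval -0.49 to 0.037) with an adjusted p of 0.617. Without young replicate 1 it was -0.17. Rrm1, the large subunit of ribonucleotide reductase, had 33.8, 34.3 and 33.1 CPM in young and 30.6, 31.6 and 29.8 in aged libraries at its promoter (chr7:102441586-102442224), again with no overlap. Its log2 fold change was -0.14 (SE 0.0884, 95% interval -0.32 to 0.043) and its adjusted p 0.679. The small subunit gene, Rrm2, had 35.9 ± 2.50 CPM (SD, n = 3) in young and 35.4 ± 1.19 CPM (SD, n = 3) in aged organoids at its promoter, a log2 fold change of -0.011 (SE 0.0883, 95% interval -0.19 to 0.17).

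The cyclins and kinases of G1 and S phase had 7 promoter peaks at 5 genes with a median log2 fold change of 0.17, and 6 of the 7 estimates were above 0. Over all promoters 8951 of 15602 were above 0. Ccnd2 and Ccne2 gave 2 of the 7 peaks each. Both promoter peaks with an unadjusted p under 0.05 belonged to this role, that is 2 of 7, against 10.5% of all promoters. On RefSeq starts this role had 7 peaks, with a median of 0.061, 5 above 0 and 0 with an unadjusted p under 0.05. Ccne2, cyclin E2, which activates Cdk2 at the start of S phase, had 52.2, 55.4 and 48.0 CPM in young and 59.0, 61.9 and 60.6 in aged replicates 1 to 3 at its main promoter peak (chr4:11190341-11191824). All aged libraries lay above all young ones. The log2 fold change was 0.22 (SE 0.0808, 95% interval 0.056 to 0.39) and the adjusted p 0.276, which missed the threshold. Ccnd2, cyclin D2, had 2.25, 2.08 and 2.32 CPM in young and 3.64, 2.36 and 3.26 in aged libraries at the smaller of its promoter peaks (chr6:127151743-127151911), with no overlap between the ages. This is the largest promoter estimate of the 30, at 0.49 (SE 0.217, 95% interval 0.049 to 0.93), and its adjusted p was 0.437. The larger Ccnd2 peak had a log2 fold change of 0.17 (SE 0.11, 95% interval -0.057 to 0.39). Ccnd1, cyclin D1, a target of Wnt signalling, went the other way at the TSS that the annotation used. Its promoter peak (chr7:144937568-144937809) had 12.4, 10.4 and 13.2 CPM in young and 11.4, 10.6 and 10.7 in aged libraries, which overlapped, with a log2 fold change of -0.13 (SE 0.130, 95% interval -0.39 to 0.13). An exon peak that may itself lie at a start of Ccnd1, given below with the distal peaks, had an estimate above 0. Cdk2, the partner of cyclin E, stood at a log2 fold change of 0.14 (SE 0.105, 95% interval -0.077 to 0.35) and Cdk4, the partner of cyclin D, at 0.22 (SE 0.163, 95% interval -0.11 to 0.55). The peak on the RefSeq start of Cdk4 (chr10:127063202-127063875), distal by the annotation, was more open, at 44.1 against 26.3 CPM per kb. Its log2 fold change was 0.018 (SE 0.0966, 95% interval -0.18 to 0.21).

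The genes of G2 and mitosis had 6 promoter peaks, 1 a gene, with a median log2 fold change of 0.042. Mki67, whose protein Ki-67 coats mitotic chromosomes and marks cycling cells, had 27.8, 30.8 and 29.3 CPM in young and 31.0, 30.7 and 31.4 in aged libraries (chr7:135715726-135716842). Young replicate 2 fell among the aged libraries, and the log2 fold change was 0.074 (SE 0.0904, 95% interval -0.11 to 0.26). Ccnb1, cyclin B1, had 34.0, 33.7 and 32.6 CPM in young and 34.0, 38.6 and 36.7 in aged libraries, with no overlap, though aged replicate 1 lay only just above the highest young library. Its log2 fold change was 0.13 (SE 0.0884, 95% interval -0.053 to 0.31) with an adjusted p of 0.713. Ccnb2 was the least even of the 6, with 42.0, 28.6 and 30.1 CPM in young and 30.1, 34.2 and 26.7 in aged libraries. Young replicate 1 stood above the other 5, and without it the log2 fold change of -0.11 turned to 0.046. Birc5 (survivin, of the chromosomal passenger complex) and Cdc20, the activator of the anaphase-promoting complex, had log2 fold changes of 0.023 (SE 0.0925, 95% interval -0.17 to 0.21) and -0.040 (SE 0.0873, 95% interval -0.22 to 0.14).

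E2F and retinoblastoma family genes had 6 promoter peaks at 5 genes, with a median log2 fold change of 0.089. E2f1, the founding activator of the family, had 49.3, 51.3 and 41.2 CPM in young and 51.1, 52.4 and 51.5 in aged libraries (chr2:154568896-154570291). Aged libraries lay within 1.5 CPM of each other and young replicate 3 was the lowest, with young replicate 2 inside the aged range, and the log2 fold change was 0.13 (SE 0.0862, 95% interval -0.044 to 0.31). Without young replicate 3 it was 0.035. E2f3, another activator, had 7.44, 8.89 and 6.65 CPM in young and 8.73, 9.10 and 9.51 in aged libraries (chr13:29984303-29984563), a log2 fold change of 0.24 (SE 0.145, 95% interval -0.060 to 0.53) with an adjusted p of 0.657. Young replicate 2 lay between aged replicates 1 and 2 there, so the groups overlapped, and without young replicate 3 the log2 fold change was 0.12. A much stronger peak lay on another RefSeq start of E2f3 (chr13:29985961-29986747), distal by the annotation. It averaged 96.8 CPM over the 6 libraries, with a log2 fold change of -0.051 (SE 0.0804, 95% interval -0.21 to 0.11). E2f7, a repressor of the family, and Rbl1, the retinoblastoma relative p107, had log2 fold changes of 0.047 (SE 0.0913, 95% interval -0.14 to 0.23) and -0.088 (SE 0.101, 95% interval -0.29 to 0.12).

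The annotation used a single TSS per gene and gave 16 of the 41 genes no promoter peak, so peaks on RefSeq starts were added after the data were seen. These were peaks that overlapped a RefSeq window of one of the genes, whatever gene the annotation named. They numbered 35, at 33 genes. Of them 17 were promoter peaks as defined above, 9 were distal ones, and 9 were named for a neighbouring gene. They covered 14 of the 16 genes, all but Rb1 and Aurkb. edgeR called 0 of 35, against 1.44% of such peaks over all genes, DESeq2 called 0 as well, and 0 had an unadjusted p under 0.05, against 10.6%. Estimates ran from -0.23 to 0.24 with a median of 0.0034, against 0.032 over all such peaks. Every 95% interval lay between -0.49 and 0.53.

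Pcna, the sliding clamp of the replication fork, had one of the strongest and most even of these peaks (chr2:132252578-132253491). It stood at 89.7, 84.2 and 83.0 CPM in young and 85.6, 85.4 and 85.8 in aged libraries, overlapping, with a log2 fold change of 0.0034 (SE 0.0732, 95% interval -0.15 to 0.15). The start peak of Cdk1 (chr10:69352254-69353263) had 40.8, 42.3 and 41.0 CPM in young and 43.4, 44.6 and 41.1 in aged libraries, a log2 fold change of 0.054 (SE 0.0830, 95% interval -0.11 to 0.22). Only aged replicate 3 fell inside the young range at Cdk1. Ccne1, cyclin E1, had 23.9, 27.5 and 20.2 CPM in young and 28.5, 28.3 and 26.3 in aged libraries at its start, with young replicate 2 inside the aged range and a log2 fold change of 0.21 (SE 0.105, 95% interval -0.0048 to 0.42). Top2a, the topoisomerase that untangles replicated DNA, had 19.5, 20.6 and 23.4 CPM in young and 19.0, 17.5 and 21.5 in aged libraries, a log2 fold change of -0.14 (SE 0.108, 95% interval -0.36 to 0.079). The helicase genes Mcm3 and Mcm6 had estimates of -0.10 and 0.046, and the loading factor gene Cdc6 one of -0.033 at the most open peak per kb of all those described here, 128 CPM per kb over the 6 libraries. The mitotic kinases Aurka, Plk1 and Bub1 had -0.026, -0.029 and 0.15. Cdc25a, the phosphatase that activates Cdk2, had -0.083, the cyclin D3 gene Ccnd3 had 0.092 and -0.00099 at its pair of starts, and the repressor E2f8 had 0.037. None of these starts passed the test.

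Of the 158 tested distal peaks, which include 9 on RefSeq starts, a single one passed the threshold. edgeR called 1 of 158, aged higher, where it called 1% of all distal peaks in either direction and 0.632% with aged higher. DESeq2 called 1 as well. There were 9 peaks with an unadjusted p under 0.05, 6 with aged higher and 3 with aged lower, or 5.70% of 158 against 9.28% over all distal peaks. The median log2 fold change was -0.015, beside -0.013 over all distal peaks, with 74 estimates above 0 and 84 below. Its sign turned as well, to 0.0070 without aged replicate 2 and 0.011 with libraries thinned to equal depth. Groups did not overlap at 9 peaks with aged higher (5.70%, against 7.54%) and at 9 with aged lower (5.70%, against 6.86%). A further 34 distal peaks were too low to test. Distal peaks were also less exactly measured than promoters, with a median SE of 0.223 on the log2 scale against 0.0958.

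**Figure D2:**
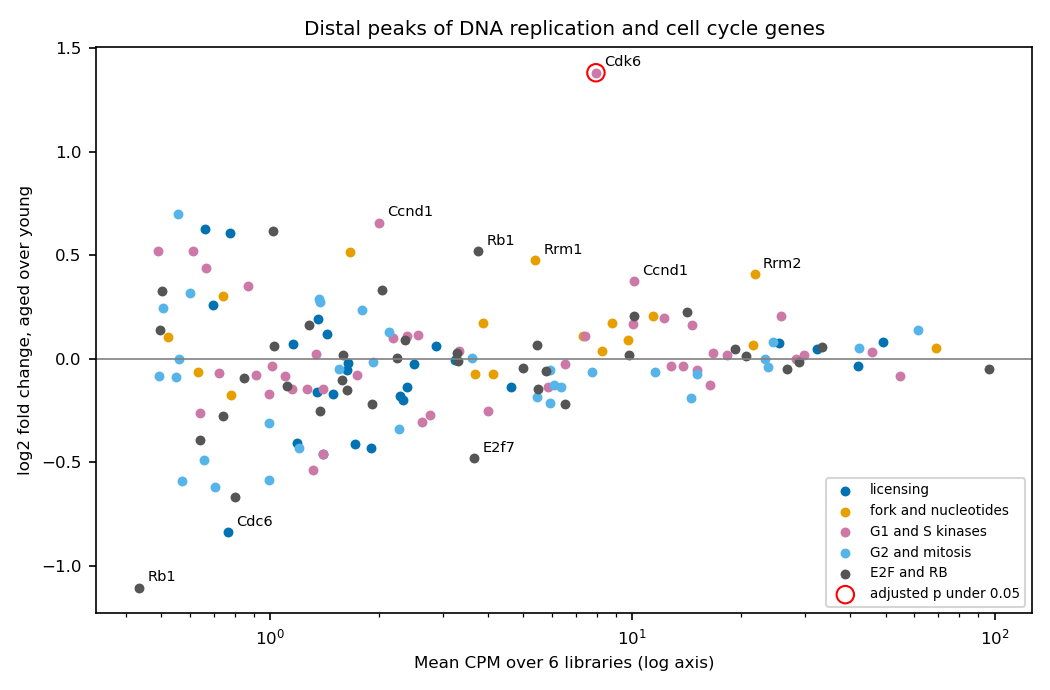
Log2 fold change, aged over young, against mean CPM over the 6 libraries (log axis) for the 158 tested distal peaks, coloured by the role of the gene. The called Cdk6 peak (ringed) stands at 1.38 and all other peaks lie between -1.10 and 0.70, with the widest scatter at the lowest levels.

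The peak that rose lies in intron 4 of 7 of Cdk6 (chr5:3432819-3433739, 921 bp), the kinase that with D-type cyclins phosphorylates Rb1 in G1. It had 4.77, 3.59 and 5.06 CPM in young and 10.8, 12.3 and 11.1 in aged replicates 1 to 3, from 34, 95 and 96 and 238, 266 and 285 counts. All 3 aged libraries were more than 2-fold above their young partners, and the groups were far apart. Means were 4.48 ± 0.778 CPM (SD, n = 3) in young and 11.4 ± 0.788 CPM (SD, n = 3) in aged organoids, a 2.60-fold rise (95% interval 2.09 to 3.25). On the log2 scale this is 1.38 (SE 0.157, 95% interval 1.06 to 1.70), with an edgeR adjusted p of 6.4e-07. It ranked 79th by p among all 132055 peaks tested. Without young replicate 1 the log2 fold change was 1.41. The peak lies 37.7 kb from the annotated TSS and 89.4 kb from the RefSeq start of Cdk6, and so it left the set when distal peaks were limited to 20 kb.

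The rest of the Cdk6 gene did not pass the test. Across the RefSeq span of the gene there were 35 peaks, of which 26 were tested and 1 rose. The other 25 had log2 fold changes between -0.46 and 0.76, and the smallest adjusted p among them was 0.529. The peak on the RefSeq start of Cdk6 (chr5:3343685-3344649) had 41.0, 38.7 and 35.2 CPM in young and 38.0, 41.6 and 39.5 in aged libraries, which overlapped, with a log2 fold change of 0.061 (SE 0.0874, 95% interval -0.12 to 0.24). Its interval and that of the intronic peak do not meet.

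**Figure D3:**
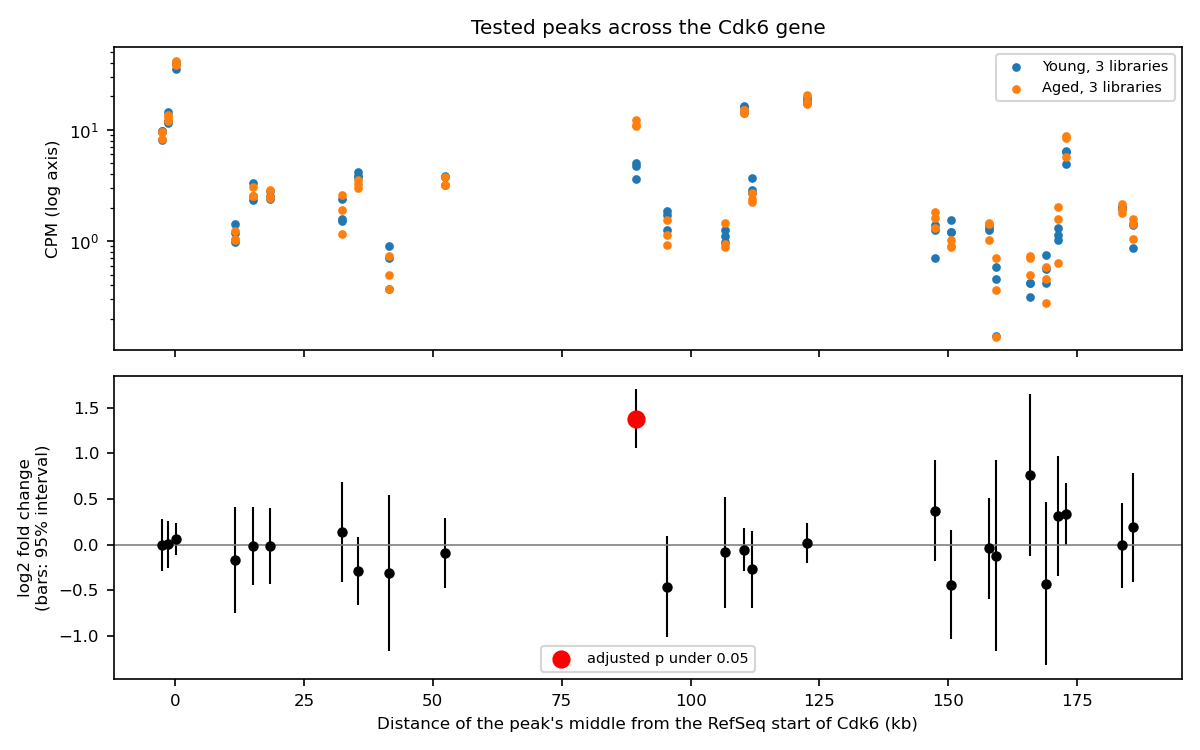
Peaks tested across the Cdk6 gene by distance of the peak's middle from the RefSeq start (kb): above, CPM in each of the 3 young and 3 aged libraries (log axis), below, log2 fold change of aged over young with its 95% interval. The peak at 89.4 kb alone was called (red) and its aged libraries stand clear of the young ones.

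The next smallest p belonged to an intergenic peak 15.1 kb from the TSS of Rrm2 (chr12:24723479-24724732). It had 18.2, 20.0 and 17.6 CPM in young and 25.5, 29.5 and 19.7 in aged libraries. Aged replicates 1 and 2 stood clear of the young libraries, while aged replicate 3 lay within their range. The log2 fold change was 0.41 (SE 0.118, 95% interval 0.17 to 0.65) with an adjusted p of 0.0968, short of the threshold. With the replicate number as a block the estimate was 0.40 with an adjusted p of 0.0030, and without aged replicate 3 it was 0.56 with an adjusted p of 0.0175, so the call turned on both choices. With the block 2.42% of all distal peaks were called. The share called without aged replicate 3 is not given here, so that call stands without a background. All 9 tested distal peaks of Rrm2 had estimates above 0, from 0.038 to 0.41, but neighbouring peaks come from the same 6 libraries and are no replicates of each other.

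Ccnd1 had 2 of the 9 distal peaks. The one in an exon, 1.53 kb from its TSS (chr7:144939560-144939902), had 7.86, 8.74 and 9.65 CPM in young and 12.0, 10.6 and 11.8 in aged libraries, with no overlap. The log2 fold change was 0.37 (SE 0.134, 95% interval 0.10 to 0.65) and the adjusted p 0.258. The other, at the end of the transcript 8.50 kb away (chr7:144929521-144929879), was much lower, with 0.842, 2.12 and 1.37 CPM in young and 2.09, 2.54 and 2.99 in aged libraries. There young replicate 2 lay just above the lowest aged library, and the log2 fold change was 0.66 (SE 0.251, 95% interval 0.15 to 1.17). Of 14 tested distal peaks of Ccnd1, 10 had estimates above 0, whereas the estimate at its annotated promoter was below 0. The exon peak and the transcript-end peak lie on opposite sides of the annotated TSS. The exon peak is thus upstream of that TSS yet inside an exon, and may itself lie at a start of Ccnd1. No RefSeq window was at hand for Ccnd1, so promoter and distal peaks cannot be firmly set apart there.

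Rb1, the pocket protein that holds E2F factors in check, was covered by intronic peaks alone, and they went both ways. In intron 17 (chr14:73250170-73250319) the levels were 3.09, 3.44 and 2.64 CPM in young and 4.68, 4.85 and 3.77 in aged libraries, all aged above all young, with a log2 fold change of 0.52 (SE 0.189, 95% interval 0.14 to 0.91) and an adjusted p of 0.268. In intron 9 (chr14:73275865-73275949) they were 0.561, 0.492 and 0.738 CPM in young and 0.227, 0.277 and 0.311 in aged libraries, all aged below all young, but on 4, 13 and 14 and 5, 6 and 8 counts. The interval of that peak was correspondingly wide, at -2.07 to -0.14 around -1.10 (adjusted p = 0.416). The most open Rb1 peak, also intronic (chr14:73253391-73253835), was even, with 23.0, 18.8 and 20.0 CPM in young and 21.0, 20.7 and 19.8 in aged libraries.

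Further distal peaks with an unadjusted p under 0.05 lay near Rrm1, E2f7 and Cdc6. The Rrm1 peak, 45.6 kb from its TSS (chr7:102395911-102396374), had 4.07, 5.33 and 3.96 CPM in young and 7.32, 5.22 and 6.48 in aged libraries, and the groups overlapped because young replicate 2 was above aged replicate 2. Its estimate of 0.47 (interval 0.12 to 0.83) was opposite in sign to that of the Rrm1 promoter. The E2f7 peak (chr10:110705759-110705952) had 4.91, 4.35 and 3.64 CPM in young and 2.32, 3.79 and 2.95 in aged libraries. Its groups overlapped through aged replicate 2 and young replicate 3, and the log2 fold change was -0.48 (SE 0.199, 95% interval -0.88 to -0.075). The Cdc6 peak, in intron 8 (chr11:98916509-98916621), was weak, with 1.26, 0.870 and 0.897 CPM in young and 0.546, 0.323 and 0.699 in aged libraries, and did not overlap. Its log2 fold change was -0.84 (SE 0.376, 95% interval -1.60 to -0.070), and the adjusted p values of the 3 peaks were 0.277, 0.382 and 0.450.

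**Figure D4:**
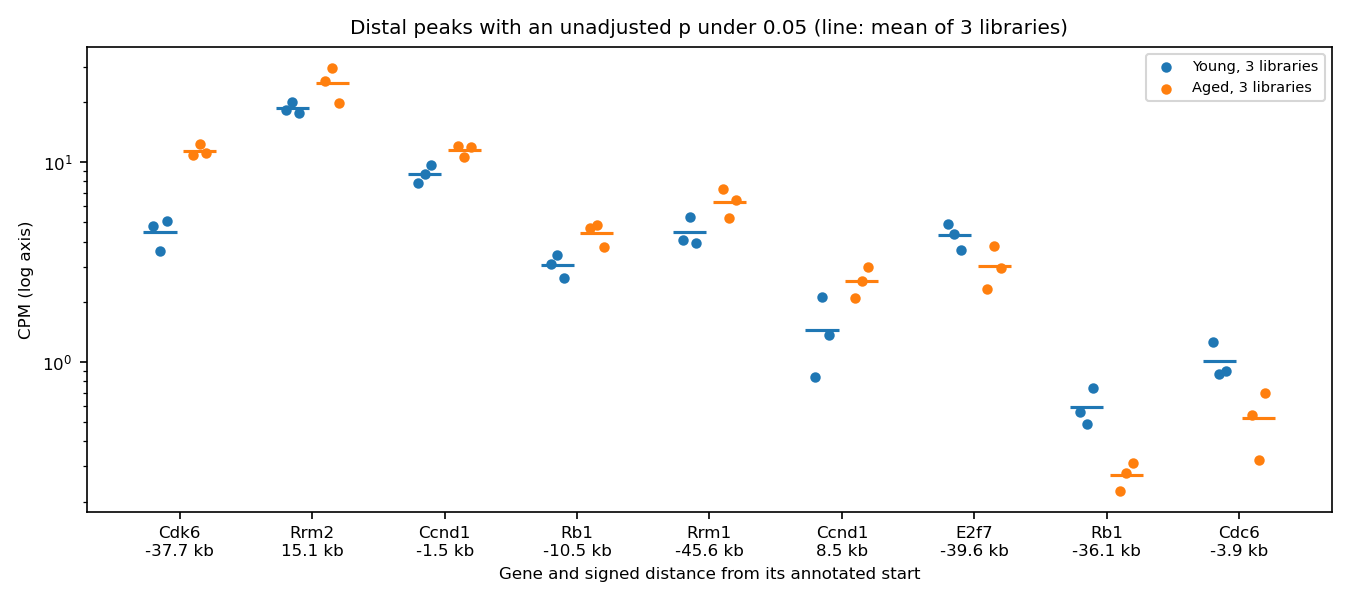
CPM in each of the 3 young and 3 aged libraries (log axis, points) with the mean of each group (lines) at the 9 distal peaks with an unadjusted p under 0.05, named by gene and signed distance from the annotated start (kb). The Cdk6 groups are the farthest apart relative to their spread, while those of Rrm2, Rrm1, E2f7 and the second Ccnd1 peak overlap.

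By role, the distal medians were -0.029 for licensing genes (26 tested peaks), 0.10 for the fork and nucleotide supply (17), -0.014 for G1 and S phase (44), -0.060 for G2 and mitosis (34) and -0.011 for E2F and retinoblastoma genes (37). Mki67 had 10 tested distal peaks with estimates from -0.62 to 0.70 and Cdk1 had 12 from -0.59 to 0.32, and none had an unadjusted p under 0.05. Aurkb, a kinase of the chromosomal passenger complex, was represented by 2 tested distal peaks, the more open of which, in an exon (chr11:69045506-69046095), had 24.0 ± 1.32 CPM (SD, n = 3) in young and 23.3 ± 1.81 CPM (SD, n = 3) in aged organoids. Its log2 fold change was -0.037 (SE 0.10, 95% interval -0.24 to 0.17).

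Passage was read as a number beside age in the same model. None of the 188 tested peaks was called, against 0% of all promoter and 0.00311% of all distal peaks, and DESeq2 called none as well. At an unadjusted p under 0.05 there were 2 promoter peaks and 11 distal ones, against 3.27% and 5.35% of all such peaks. The smallest adjusted p was 0.423, at an intergenic Ccnd1 peak (chr7:144970957-144972094) 33.3 kb from the TSS. It had 9.97, 9.95 and 14.1 CPM in young and 10.1, 13.1 and 16.1 in aged libraries at passages 4, 3 and 2, so passage 2 was the highest in both ages, and the slope was -0.31 log2 units per passage (SE 0.0804). The promoter peaks were those of Ccnb2 (slope 0.16, SE 0.0659) and the larger E2f2 peak (slope -0.14, SE 0.0687). Passage is also the replicate number and the culture code of the titles, so these cannot be told apart.

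A wider list of 119 other genes of replication, mitosis and cell cycle control was read off the same fit at 1 promoter peak per gene. It held 71 genes with a promoter peak, of which 68 were tested. The other 48 genes had no peak within 1 kb of the annotated TSS. The 3 untested peaks, of Foxm1, Mybl2 and Rpa2, averaged 0.42, 0.40 and 0.23 CPM, against a median of 32.5 CPM over the list. Those of Rfc3 and Pold1 were tested but also weak, at 0.66 and 1.27 CPM. Such weak peaks may not lie at the main starts of their genes. edgeR called 0 of 68, against 1.48% of all genes, and DESeq2 0. There were 6 with an unadjusted p under 0.05, all with aged higher, or 8.82% against 10.7%. The median log2 fold change was 0.012, against 0.027 over all genes, and turned to -0.0039 without young replicate 3. Over the 29 tested replication genes it was 0.0069, over 18 mitosis genes -0.0085 and over 21 regulators 0.042. The smallest p belonged to Dut, which clears dUTP from the nucleotide pool, with 69.8, 64.6 and 64.2 CPM in young and 73.7, 79.0 and 77.0 in aged libraries. All aged libraries were above all young ones, with a log2 fold change of 0.22 (SE 0.0764, 95% interval 0.060 to 0.37) and an adjusted p of 0.250. Cdkn2c, an inhibitor of Cdk4 and Cdk6, had 35.9, 40.8 and 34.4 CPM in young and 43.0, 44.7 and 43.2 in aged libraries, again apart, with 0.23 (SE 0.0871, 95% interval 0.051 to 0.41) and an adjusted p of 0.312. Tfdp1, the DNA-binding partner of the E2F factors, had 17.4, 25.8 and 16.9 CPM in young and 24.8, 26.7 and 24.3 in aged libraries, with young replicate 2 inside the aged range. Its log2 fold change was 0.30 (SE 0.121, 95% interval 0.053 to 0.55) with an adjusted p of 0.364, and with the replicate number as a block 0.33 with an adjusted p of 0.0266, where the block called 3.63% of all genes. Without young replicate 2, both Cdkn2c and Tfdp1 were called. The share of all genes called without that library is not given here, so these calls stand without a background.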

How the data were processed

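The deposited values are counts of sequenced ATAC-seq reads or fragments per consensus peak, not normalised, made by the authors with featureCounts 2.0.1 per the file headers. Per the submitters' processing notes, the tools also comprised BWA 0.7.17-r1188, Trim Galore 0.6.4, MACS2 2.2.7.1, Picard 2.23.1 and SAMtools 1.10, on build GRCm38. Whether fragments or reads were counted, how duplicates were handled and any Tn5 shift are not given in the sources used here. Reads carry no molecular identifiers, so precision from counts covers counting error only. Peak length and distance to the TSS come from the deposited annotation, whose 1-based starts are printed.

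Peaks were tested with edgeR 4.0.16 in R 4.3.3: TMM factors, filterByExpr with a minimum count of 10 (132055 of 156733 peaks kept), robust quasi-likelihood F test, Benjamini-Hochberg adjustment over all tested peaks, threshold 0.05. The fit was checked on simulated data. Standard errors and 95% intervals were derived from the F statistic. CPM use TMM-scaled library sizes. Same-numbered libraries share a culture code and passage in the titles, and were treated as pairs on that ground in the block alone. The descriptions give the same passages but 1 culture code for all 6 libraries, so what the block removes beyond passage is uncertain. Deviations from the mean of each age correlated at 0.074, 0.126 and 0.144 within pairs, and at -0.125 to 0.0033 between libraries of different numbers. The main model had no block and took no account of pairs. The block is an alternative, as are DESeq2 1.42.0, RLE factors, library totals alone, other filters and windows, libraries thinned to the shallowest, and leaving out each library.

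The genes and lists were chosen with earlier results of these data known, and support nothing beyond their own values. Every gene is named. Library values are given for called peaks and for the 3 promoter and 3 distal peaks with the smallest p in each direction. They are also given for the promoters of Mki67, Pcna, Ccnd1, Cdk6, Cdk1 and E2f1. Rb1 was on the same list but had no promoter peak and no RefSeq window, so only intronic peaks are given for it. The highest and lowest promoter and the 3 other genes with the smallest p are given as well. Values of further peaks were printed after they were seen. Sequences are from RefSeq.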

Additional observations from a re-analysis of the deposited data

How the results depend on the processing

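The count of called promoter peaks stayed at 0 under every alternative run, as did the counts for RefSeq starts and passage where run. Summing per gene and a 500 bp window left 25 and 21 promoter values to test. The called distal peaks numbered 1 except with distal peaks limited to 20 kb, which left 0, and with the replicate number as a block, which gave 2 (Cdk6 and Rrm2). Leaving out each library gave 1 to 2, the higher count without aged replicate 3. Among the other cell cycle genes the replicate block gave 1 (Tfdp1), and leaving out each library gave 0 to 2. The block changed no other call. With library totals alone the median of the other cell cycle genes was -0.00092. The Cdk6 intronic peak was called under every alternative, with log2 fold changes of 1.2 to 1.53 when a library was left out.

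Of 736 values from alternatives over 57 single peaks, 700 kept their direction and side of the threshold, 34 changed sign and 2 crossed the threshold, both at the Rrm2 distal peak. With thinned libraries Birc5 stood at -0.022, the main Mcm5 peak at 0.055, Plk1 at 0.024 and the Cdc6 start at 0.083. With library totals alone Pcna stood at -0.0061. The second Ccnd3 start stood at 0.00047 with DESeq2, 0.00051 with RLE factors and 0.0051 with the block. Leaving out a library gave -0.072 to 0.022 at Aurka, -0.019 to 0.057 at Birc5, -0.0080 to 0.20 at Ccna2, -0.21 to 0.046 at Ccnb2, -6.5e-05 to 0.20 at the first Ccnd3 start, -0.052 to 0.051 at the second, -0.0065 to 0.50 at the smaller Ccne2 promoter peak, -0.10 to 0.045 at the Cdc6 start, -0.042 to 0.095 at the Cdk4 start, -0.30 to 0.043 at the smaller Cdt1 peak, -0.14 to 0.011 at the E2f3 start, -0.058 to 0.14 at E2f7, -0.012 to 0.10 at E2f8, -0.046 to 0.091 at Mcm4, -0.048 to 0.0036 at the main Mcm5 peak, -0.017 to 0.034 at Pcna, -0.11 to 0.033 at Plk1 and -0.054 to 0.033 at Rrm2. Young replicate 1 was the shallowest library, and at its depth weak distal peaks rested on few counts, such as 4 at the Rb1 peak in intron 9.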

Other observations

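Mybl1, a Myb factor related to the one in the MuvB complexes, and Cdkn2b, an inhibitor of Cdk4 and Cdk6, were chosen after their values were seen, as the further regulators among the wider list with an unadjusted p under 0.05. Mybl1 had 36.6, 41.7 and 35.2 CPM in young and 43.6, 45.0 and 42.3 in aged libraries at its promoter, with an edgeR adjusted p of 0.431. Cdkn2b had 16.1, 21.3 and 18.9 and 23.1, 23.1 and 21.7 CPM, with an adjusted p of 0.446. In both genes all aged libraries lay above all young ones, and neither passed the threshold. Dbf4, of the replication genes in the wider list, also had an unadjusted p under 0.05. Its levels were 36.1, 37.9 and 30.7 CPM in young and 39.2, 45.0 and 37.5 in aged libraries, which overlapped, with an edgeR adjusted p of 0.423.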
